A study of Canis lupus familiaris with 8 samples.

Results

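The genes described here are 32 genes of glucose use: glucose uptake, glycolysis, lactate production and export, the pentose phosphate pathway, and 3 genes tied to the switch between glycolysis and respiration (PDK1, HIF1A and BNIP3). They were chosen by gene symbol from the role of their products, and all 32 were found among the 35048 rows of each count table. All 32 also passed the filter on low counts, with 622 counts over the 8 libraries for the rarest, BNIP3, and 44816 for the most abundant, TALDO1. RNA came from peripheral blood mononuclear cells (PBMCs), which are lymphocytes and monocytes purified from blood, of 5 obese dogs and 3 Normal dogs. By the labels, obese dog 1 was of the breed Dachshunds, obese dog 2 was a Chihuahua, obese dogs 3 and 4 were Labrador retrievers, obese dog 5 was a Welsh Corgi and all Normal dogs were Beagles. No treatment, age, or measure of body condition is given in the labels. Because no obese dog was a Beagle, breed and obesity cannot be told apart in any value below.

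Glucose enters blood cells through the GLUT transporters, is trapped by hexokinase and is split by glycolysis into pyruvate, which lactate dehydrogenase turns into lactate for export. The pentose phosphate pathway branches off at glucose 6-phosphate and yields NADPH, which the oxidase of phagocytes uses, and ribose for nucleotides. HIF1A raises many of these genes when oxygen is low, and leukocytes that are activated shift towards glycolysis. Many steps have several isozymes, whose mix differs between cell types.

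Expression is given as CPM, the count relative to the library size after TMM scaling. The 3′ tag libraries yield 1 tag per transcript, next to the poly(A) tail, so levels of different genes can be set side by side with little effect of length. Library totals were 10264202 to 14910982 counts in the obese dogs and 10408203 to 14811053 counts in the Normal dogs. The libraries differed in their cell type markers. The summed level of 6 platelet markers was 67.6 to 1241 CPM in the obese dogs and 8.19 to 32.02 CPM in the Normal dogs. For 11 T cell markers it was 947 to 1275 CPM in the obese dogs and 486 to 744 CPM in the Normal dogs. Of these, 10 had positive log2 fold changes and CD4 a negative one (−1.09). CD4 gave 586 of the 1047 CPM in obese dog 3 and 29.9 to 51.2 CPM in the other obese dogs. In Normal dogs 1 to 3 it gave 114, 363 and 459 CPM. The 10 neutrophil markers summed to 1141, 358, 6327, 585 and 511 CPM in obese dogs 1 to 5, against 1591, 6704 and 3573 CPM in the Normal dogs. For 9 monocyte markers the sums were 711 to 3078 CPM in the obese dogs, highest in obese dog 3, against 2351 to 3970 CPM in the Normal dogs. In obese dog 3 and the Normal dogs most of that sum came from S100A12 and VCAN, and in the other obese dogs most came from the other 7 markers. S100A12 and VCAN had negative log2 fold changes, while the other 7 monocyte markers had positive ones (median of the 9, 0.38). The 7 plasma cell markers summed to 101 to 218 CPM in the obese dogs and 222 to 1030 CPM in the Normal dogs. Sums of the B cell and NK cell markers overlapped, with 35.8 to 235.8 CPM and 47.2 to 129.6 CPM in the obese dogs, against 41.3 to 82.1 CPM and 55.9 to 88.1 CPM in the Normal dogs. The 8 erythroid markers summed to 1162 CPM in obese dog 3 and 9.22 to 30.2 CPM in the remaining obese dogs, against 6.89 to 10.8 CPM in the Normal dogs. No measured marker was at 0 in all 8 libraries. The platelet, T cell and plasma cell sums did not overlap between the groups, so they moved with every gene below whose groups did not overlap, and their part in those values was not tested. Obese dog 3 thus stood apart from the other obese dogs, and results that rest on it are given with and without it. In RNA from mixed cells, fewer cells of a type and less RNA per cell cannot be told apart.

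As a whole the 32 genes did not move in 1 direction between obese and Normal dogs. Their median log2 fold change was 0.15, with 20 positive and 12 negative, where the median of all 20632 genes tested was 0.09 and 55.3% were positive. With upper-quartile scaling these medians were 0.03 and −0.03, so the scaling moved the 32 genes and all genes much alike. By edgeR's quasi-likelihood test, adjusted over all genes tested, none of the 32 rose and none fell at an adjusted p under 0.05, where 0.0485% of all genes rose and 0.184% fell. At an unadjusted p under 0.05, 5 of the 32 were higher (15.6%) and 2 lower (6.25%), beside 9.01% and 6.73% of all genes. Values of the groups did not overlap for 3 of the 32, all higher in the obese dogs, beside 5.75% of all genes that lay wholly higher and 5.16% wholly lower.

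Other tools and the fit without obese dog 3 called some of the 32. Without obese dog 3, 3 rose (PFKM, ENO2 and SLC2A1) and 3 fell (HK2, SLC16A1 and PGM2) by edgeR, beside 3.25% of all genes that rose and 5.03% that fell. DESeq2 on all dogs called 4 higher (PFKM, ALDOC, ENO2 and SLC2A1) and PGM2 lower, beside 2.98% and 2.12% of all genes. A limma-voom fit that weights libraries by quality called 4 higher (PFKP, ALDOC, ENO2 and SLC2A1) and 4 lower (HK2, GAPDH, SLC16A1 and PGM2), beside 9.12% and 9.9% of all genes.

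**Figure D1:**
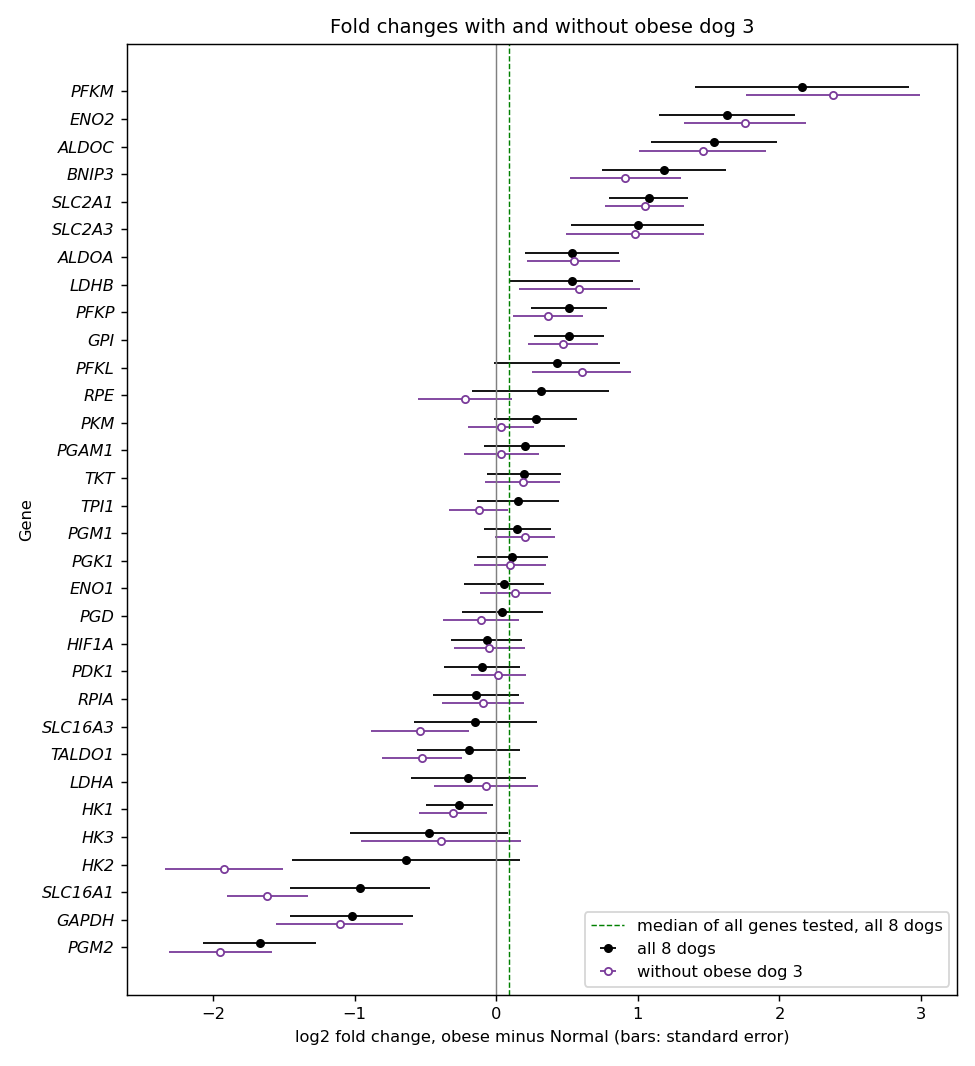
Log2 fold change of each of the 32 genes, obese minus Normal, with its standard error, from edgeR on all 8 dogs (filled) and without obese dog 3 (open). PFKM lies highest at 2.16 and PGM2 lowest at −1.67, most genes lie near the median of all genes (0.09, dashed), and HK2 moves most when obese dog 3 is left out.

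The genes differed widely in level. TALDO1 had the highest mean over all 8 dogs (458 CPM), followed by PGD (397 CPM), TKT (395 CPM) and SLC2A3 (392 CPM), whose ranges over the dogs overlapped one another. PGAM1 (216 CPM), PKM (179 CPM) and HK1 (156 CPM) came next, and ALDOC (8.55 CPM), PFKM (7.85 CPM) and BNIP3 (5.98 CPM) were lowest. The counts of TALDO1 and PGD nearly equalled those of genes that overlap them, as given below. Their levels, and the sums and shares that include them, may therefore not be theirs alone. The level of all 32 genes added up to 3914, 3323, 3893, 2914 and 2394 CPM in obese dogs 1 to 5, against 2924, 3491 and 2874 CPM in the Normal dogs. Obese dog 5 had the lowest sum and obese dogs 1 and 3 the highest, so that the Normal dogs lay within the obese range. Before TMM scaling, the 32 genes held 0.336, 0.351, 0.290, 0.370 and 0.275% of all counts in obese dogs 1 to 5. In the Normal dogs they held 0.317, 0.303 and 0.304%. The order of the dogs thus depended on the scaling, with TMM factors of 0.747 in obese dog 3 and 1.27 in obese dog 4. The 5 pentose phosphate enzymes made up 39.3% of the summed level of the 32 genes on average in the obese dogs and 41.8% in the Normal dogs, and the 16 enzymes from hexokinase to pyruvate kinase 34.2% in obese and 32% in Normal dogs. The 2 glucose transporters made up 14.9% in obese dogs and 8.18% in the Normal dogs. Where values of single dogs are listed below, they stand in the order of obese dogs 1 to 5 and Normal dogs 1 to 3.

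**Figure D2:**
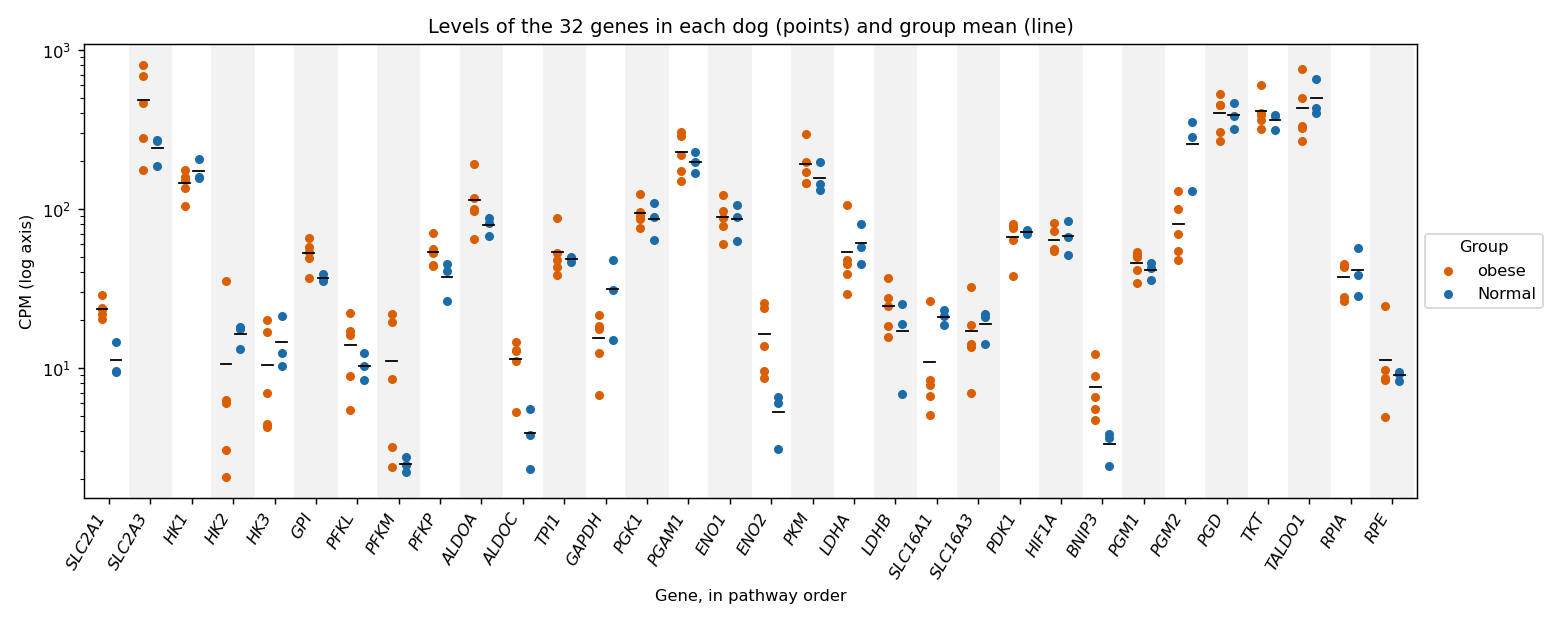
Level of the 32 genes in pathway order, in CPM on a log axis, with 1 point per dog (obese orange, Normal blue) and a line at each group's mean. The SLC2A1, ENO2 and BNIP3 points of the obese dogs all lie above those of the Normal dogs, and the obese points are spread widely for HK2 and PFKM.

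Spread between dogs was wider in the obese group for 23 of the 32 genes (71.9%), much as for all genes tested (70.7%). The median SD on the log2 scale was 0.497 in obese dogs and 0.309 in the Normal dogs for the 32 genes, beside 0.565 and 0.389 over all genes. HK2 had the widest obese range, a factor of 17.2 from lowest to highest dog, and PFKM followed with 9.16, where the Normal dogs spanned factors of 1.39 and 1.24. SLC2A1 had the narrowest obese range (1.42). Obese dog 3 was the highest or the lowest obese dog for 62.5% of the 32 genes and for 62.4% of all genes tested.

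Of the glucose transporters, SLC2A1 (GLUT1), the widely expressed transporter that supplies basal glucose, had 28.7, 21.8, 23.4, 20.2 and 23.8 CPM in obese dogs 1 to 5, against 9.42, 14.5 and 9.63 CPM in Normal dogs 1 to 3. Every obese dog was above every Normal dog, and its log2 fold change was 1.08 (standard error, SE, 0.278, adjusted p = 0.130 by edgeR). SLC2A1 had the smallest SE of the 5 genes that were higher at an unadjusted p under 0.05, and left-out dogs moved its log2 fold change between 0.96 and 1.28. Its adjusted p was 0.0459 without obese dog 3 and 0.187 to 0.535 when any other dog was left out (edgeR). The platelet, T cell and plasma cell marker sums moved with it.

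SLC2A3 (GLUT3), a high-affinity transporter of neurons, leukocytes and platelets, was far more abundant, with 686, 809.6, 463, 278 and 176 CPM in the obese dogs, against 186, 266 and 272 CPM in the Normal dogs. Obese dogs 1, 2 and 3 lay above all Normal dogs, obese dog 4 just above them and obese dog 5 below them, and the log2 fold change of 1.00 (SE 0.469) had an adjusted p = 0.340 (edgeR). In the same libraries the 6 platelet markers summed to 1241, 624, 72.1, 67.6 and 183 CPM in obese dogs 1 to 5, against 21.0, 8.19 and 32.02 CPM in the Normal dogs. The 2 dogs with the most platelet marker counts also had the most SLC2A3, and the part of platelets in this was not tested. SLC2A1 made up 6.03 ± 3.63% of the counts of both transporters in the obese dogs and 4.47 ± 0.926% in the Normal dogs (SD, n = 5 and 3).

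**Figure D3:**
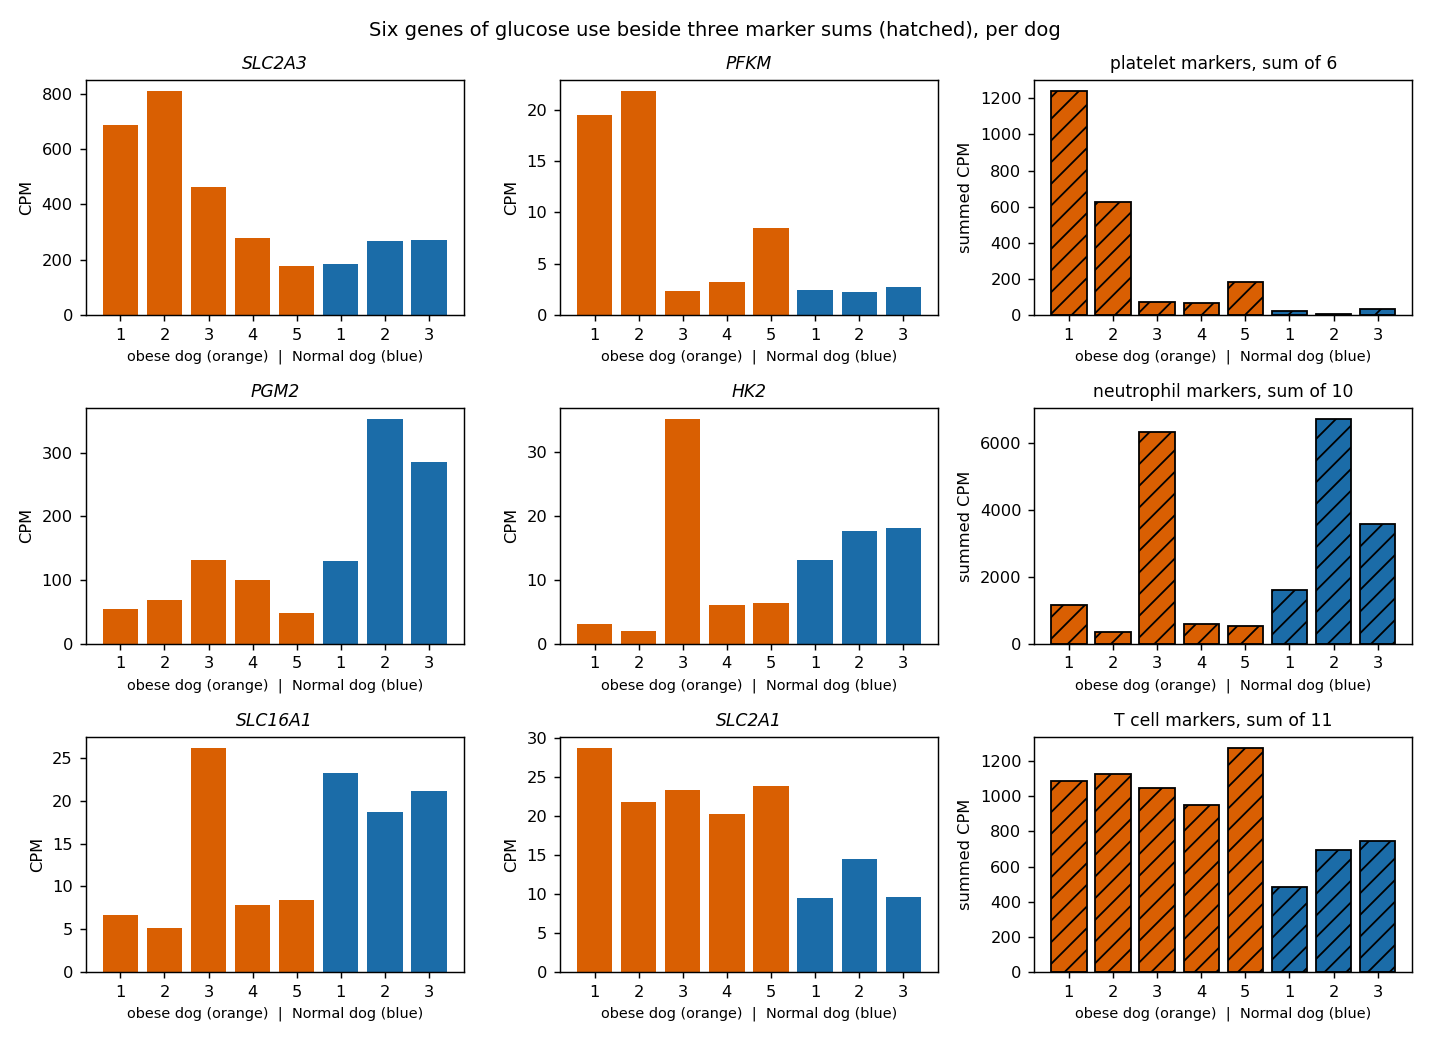
CPM of 6 genes of glucose use and the summed CPM of 3 marker lists (hatched) in each dog, obese dogs orange and Normal dogs blue. SLC2A3 and PFKM are highest in obese dogs 1 and 2, where the platelet markers reach 1241 and 624 CPM, and HK2 and SLC16A1 are highest in obese dog 3, whose neutrophil markers (6327 CPM) are near those of Normal dog 2 (6704 CPM).

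Among the hexokinases, which trap glucose as glucose 6-phosphate, HK1, the housekeeping form, was the main one, with 135, 105, 151, 175 and 159 CPM in the obese dogs, against 158, 207 and 156 CPM in the Normal dogs. The groups overlapped (log2 fold change −0.26, adjusted p = 0.626 by edgeR). HK2, the inducible form, had 3.06, 2.05, 35.2, 6.02 and 6.30 CPM in the obese dogs, against 13.1, 17.6 and 18.1 CPM in the Normal dogs. In 4 obese dogs HK2 lay below all Normal dogs, and in obese dog 3 above them. With all dogs its log2 fold change was −0.64 (SE 0.805, adjusted p = 0.742 by edgeR), and without obese dog 3 it fell by 1.92 (SE 0.417, adjusted p = 0.0229). That fit leaves out the only obese dog above the Normal dogs, so it is not separate evidence of a fall. HK2 took 18.2% of hexokinase counts in obese dog 3 (exact binomial 95% interval 16.4 to 20.1%), 1.84 to 3.45% in the remaining obese dogs, against 7.13 to 9.28% in the Normal dogs. HK3, which is known from myeloid cells, ranged from 4.23 to 20.02 CPM in the obese dogs and from 10.3 to 21.1 CPM in the Normal dogs, with its highest obese values in dogs 4 and 5 rather than dog 3.

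GPI, which turns glucose 6-phosphate into fructose 6-phosphate, had 66.0, 57.9, 53.9, 48.9 and 36.7 CPM in the obese dogs, against 39.2, 35.3 and 36.2 CPM in the Normal dogs. The first 4 obese dogs were above all Normal dogs and obese dog 5 lay among them (log2 fold change 0.51, SE 0.245, adjusted p = 0.346 by edgeR).

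Phosphofructokinase commits the sugar to glycolysis. PFKP, the platelet-type subunit and the most abundant of the 3, had 53.0, 44.5, 70.3, 55.8 and 44.0 CPM in the obese dogs, against 40.8, 45.0 and 26.4 CPM in the Normal dogs. Its groups overlapped, with an adjusted p = 0.384 (edgeR) for a log2 fold change of 0.52, although limma-voom called it higher (adjusted p = 0.0447). PFKM, the muscle-type subunit, had 19.5, 21.8, 2.38, 3.18 and 8.51 CPM in the obese dogs, against 2.46, 2.21 and 2.74 CPM in the Normal dogs. Obese dogs 1, 2, 4 and 5 lay above the Normal dogs and obese dog 3 among them. PFKM had the highest log2 fold change of the 32 genes, 2.16 (SE 0.755, adjusted p = 0.230 by edgeR), and rose without obese dog 3 (2.38, adjusted p = 0.0416). That fit leaves out the only obese dog not above the Normal dogs, so it is not separate evidence of a rise.

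PFKM took 24.0% (exact binomial 95% interval 20.9 to 27.3%) and 26.2% (23.8 to 28.7%) of phosphofructokinase counts in obese dogs 1 and 2, 3.05 to 11.4% in the remaining obese dogs, against 3.71 to 7.31% in the Normal dogs. Those 2 dogs, and then obese dog 5, also had the highest platelet marker sums (1241, 624 and 183 CPM). What platelet RNA contributes to PFKM was not tested. PFKM overlaps SENP1 in the reference annotation, which had 6650 counts over all libraries, against 824 for PFKM. PFKL, the liver-type subunit, ranged from 5.44 CPM in obese dog 3 to 22.2 CPM in obese dog 5, around Normal values of 8.36 to 12.4 CPM.

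Aldolase splits fructose 1,6-bisphosphate. ALDOA, the main form, had 192, 117, 99.5, 65.1 and 97.5 CPM in the obese dogs, against 87.2, 81.8 and 67.3 CPM in the Normal dogs. Obese dog 4 was lowest of all 8 and the other obese dogs were highest, with a log2 fold change of 0.53 (SE 0.329, adjusted p = 0.462 by edgeR). ALDOC, the form known from brain, had 11.1, 13.02, 12.8, 5.30 and 14.5 CPM in the obese dogs, against 5.55, 2.32 and 3.76 CPM in the Normal dogs. Obese dog 4 was within the Normal range, just below Normal dog 1, and the other 4 obese dogs were above it. The log2 fold change of ALDOC was 1.54 (SE 0.446, adjusted p = 0.165 by edgeR), it passed with DESeq2 (adjusted p = 0.0214), and its share of aldolase counts was 9.48 ± 3.00% in obese dogs and 4.68 ± 1.70% in the Normal dogs (SD, n = 5 and 3).

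TPI1, which interconverts the 2 triose phosphates, had 38.3, 47.9, 87.6, 52.9 and 43.3 CPM in the obese dogs, against 49.8, 49.1 and 46.7 CPM in the Normal dogs. The Normal dogs lay close together, with obese values on both sides, and obese dog 3 highest. Its log2 fold change of 0.15 had the other sign without obese dog 3 (−0.12).

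GAPDH, which oxidises glyceraldehyde 3-phosphate, had 6.81, 21.7, 17.6, 18.5 and 12.4 CPM in the obese dogs, against 31.1, 14.9 and 47.6 CPM in the Normal dogs. Normal dog 2 lay within the obese range and the other Normal dogs above it. The log2 fold change of −1.02 (SE 0.432) had an adjusted p = 0.295 (edgeR), and only limma-voom called it lower (adjusted p = 0.0323). GAPDH is known for its many near-identical pseudogenes in mammals, it had 2410 counts over all libraries, against 40760 for PGD, and the sources used here do not say how reads that match several copies were counted, so its level is uncertain.

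PGK1, which makes the first ATP of glycolysis, had 124, 95.6, 89.8, 86.4 and 76.0 CPM in the obese dogs, against 109, 88.5 and 64.3 CPM in the Normal dogs. PGAM1, a phosphoglycerate mutase, had 287, 219, 307, 174 and 151 CPM in the obese dogs, against 196, 229 and 168 CPM in the Normal dogs. For both, the groups overlapped, and the log2 fold changes were 0.11 (−0.0078 with upper-quartile scaling) and 0.20. PKM, the pyruvate kinase of most tissues, had 198, 170.0, 296, 146 and 146 CPM in the obese dogs, against 143, 198 and 132 CPM in the Normal dogs. Obese dog 3 was highest for PGAM1 and PKM, and the PKM log2 fold change of 0.28 was 0.03 without it. Like GAPDH, several of these genes have processed pseudogenes in mammals, which can share reads with them.

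Enolase makes phosphoenolpyruvate. ENO1, the ubiquitous form, had 123, 97.3, 60.2, 78.6 and 88.4 CPM in the obese dogs, against 107, 62.7 and 89.2 CPM in the Normal dogs, with a log2 fold change of 0.05 (−0.067 with upper-quartile scaling). ENO2, known as the neuronal form, had 9.64, 13.8, 8.62, 25.7 and 23.9 CPM in the obese dogs, against 6.61, 3.10 and 6.06 CPM in the Normal dogs. All obese dogs were above all Normal dogs, most of all obese dogs 4 and 5. The log2 fold change of ENO2 was 1.63 (SE 0.480, adjusted p = 0.170 by edgeR). It was past the threshold without obese dog 3 (adjusted p = 0.0356 by edgeR), with DESeq2 (0.0218) and with limma-voom (0.00866).

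As a share of both enolases, ENO2 took 15.6 ± 7.13% of counts in the obese dogs and 5.63 ± 0.847% in the Normal dogs (SD, n = 5 and 3). The lowest obese share, 7.26% in obese dog 1 (exact binomial 95% interval 5.84 to 8.90%), and the highest Normal share, 6.36% in Normal dog 3 (5.18 to 7.72%), had overlapping intervals. Obese dogs 2 and 3, with 12.4% (10.9 to 14.1%) and 12.5% (9.99 to 15.4%), were beyond the interval of every Normal dog. So were obese dogs 4 and 5, with 24.6% (22.7 to 26.7%) and 21.3% (19.5 to 23.2%). In obese dogs 4 and 5 the 8 B cell markers summed to 235.8 and 112 CPM, the highest of all 8 dogs, and the platelet markers to 67.6 and 183 CPM, and their part in ENO2 was not tested.

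**Figure D4:**
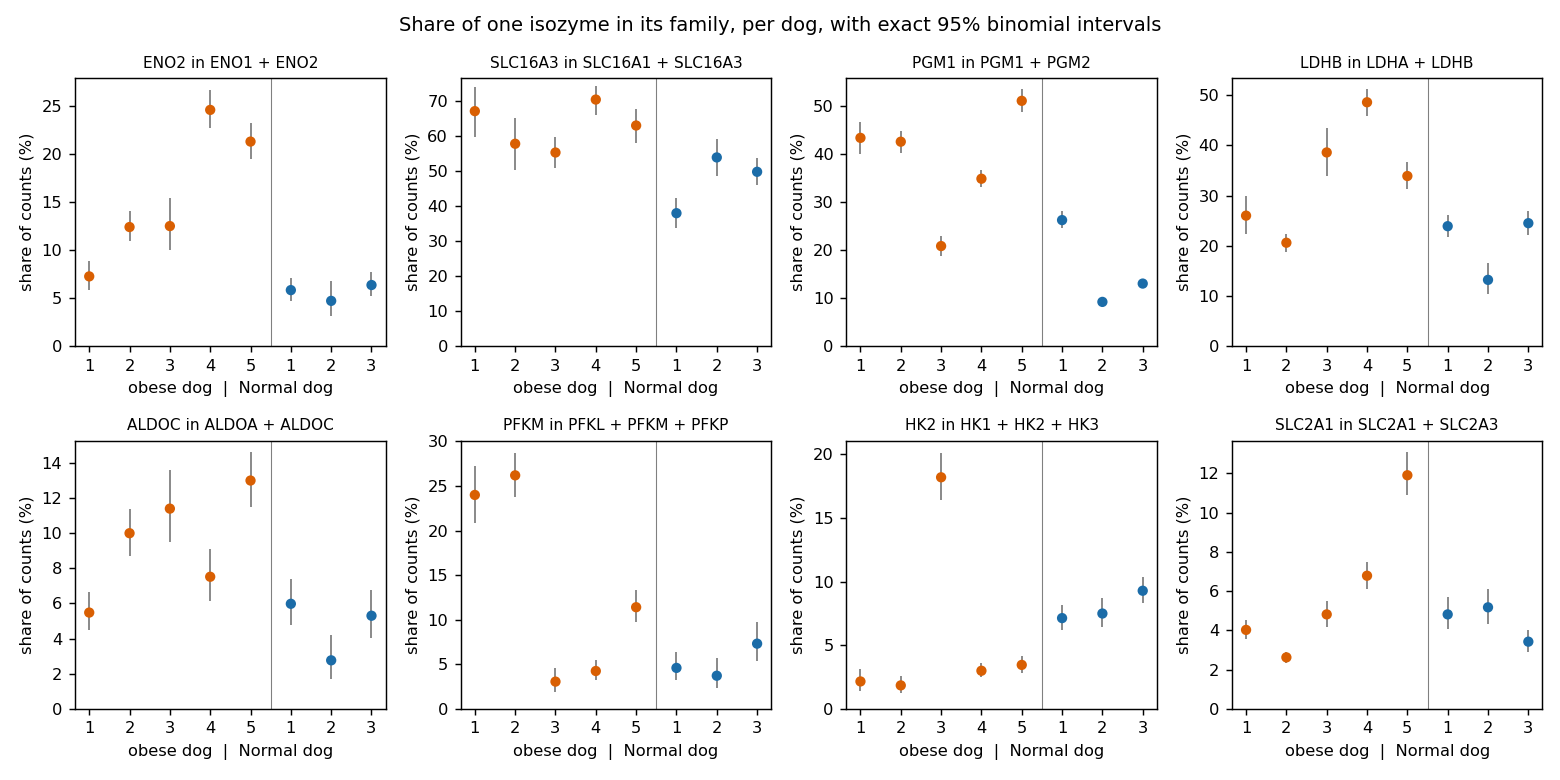
Share of 1 isozyme in the counts of its family, in percent, per dog (obese orange on the left, Normal blue on the right), with exact 95% binomial intervals that cover counting error only. The obese and Normal shares do not overlap for ENO2 and SLC16A3, HK2 stands at 18.2% in obese dog 3, and PFKM reaches 24.0 and 26.2% in obese dogs 1 and 2.

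Lactate dehydrogenase turns pyruvate into lactate, with LDHA as the form of glycolytic tissue and LDHB as the form of heart. LDHA had 44.9, 107, 29.0, 39.1 and 48.0 CPM in the obese dogs, against 80.9, 45.0 and 58.0 CPM in the Normal dogs. Obese dog 2 was highest of all, obese dog 5 lay within the Normal range and the other obese dogs below it, with a log2 fold change of −0.20 (adjusted p = 0.851 by edgeR). LDHB ranged from 15.8 to 37.0 CPM in the obese dogs and from 6.86 to 25.4 CPM in the Normal dogs (a log2 fold change of 0.53, adjusted p = 0.585 by edgeR). LDHB made up 33.5 ± 10.9% of the counts of both in obese dogs and 20.5 ± 6.33% in the Normal dogs, and these shares overlapped, with 20.6% in obese dog 2 (exact binomial 95% interval 18.8 to 22.4%) and 24.5% in Normal dog 3 (22.1 to 27.0%).

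Of the lactate transporters, SLC16A1 (MCT1), the widespread form, had 6.69, 5.09, 26.2, 7.86 and 8.40 CPM in the obese dogs, against 23.3, 18.7 and 21.1 CPM in the Normal dogs. As for HK2, 4 obese dogs lay below all Normal dogs and obese dog 3 above them. The log2 fold change was −0.96 with all dogs (SE 0.497, adjusted p = 0.382 by edgeR), and SLC16A1 fell by 1.62 without obese dog 3 (SE 0.285, adjusted p = 0.00984). As for HK2, the fit without the only obese dog above the Normal dogs is not separate evidence of a fall. SLC16A3 (MCT4), the form of highly glycolytic cells, had 13.6, 6.94, 32.3, 18.6 and 14.2 CPM in the obese dogs, against 14.2, 21.8 and 20.9 CPM in the Normal dogs, again highest in obese dog 3. The neutrophil and monocyte marker sums of obese dog 3 (6327 and 3078 CPM) were also the highest of the obese dogs and within the Normal range. Of that monocyte sum, S100A12 gave 1927 CPM and VCAN 851 CPM, while the monocyte marker CTSS was lower there (111 CPM) than in the other obese dogs (247 to 347 CPM). The erythroid sum of obese dog 3 was 1162 CPM, against 6.89 to 10.8 CPM in the Normal dogs. The part of these cell types in the values of HK2, SLC16A1 and SLC16A3 was not tested.

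Although both transporters were high in obese dog 3, the balance between them was not. SLC16A3 made up 62.6 ± 6.26% of the counts of the pair in obese dogs and 47.1 ± 8.27% in the Normal dogs (SD, n = 5 and 3). Each obese share was above each Normal share, narrowly so between obese dog 3 (55.2%, exact binomial 95% interval 50.8 to 59.6%) and Normal dog 2 (53.8%, 48.6 to 59.0%). In the reference annotation SLC16A1 overlaps LRIG2 and SLC16A3 overlaps CSNK1D, with 4932 and 17337 counts, against 1483 for SLC16A1 and 1813 for SLC16A3, so reads could have been shared.

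PDK1, a kinase that turns pyruvate dehydrogenase off, had 76.1, 80.5, 37.9, 76.6 and 63.6 CPM in the obese dogs, against 73.8, 72.2 and 69.3 CPM in the Normal dogs, with obese dog 3 lowest of all. HIF1A, the oxygen-regulated subunit of the hypoxia-inducible factor, had 55.5, 81.8, 54.7, 73.0 and 56.0 CPM in the obese dogs, against 83.7, 51.1 and 66.9 CPM in the Normal dogs. The log2 fold changes of PDK1 and HIF1A were −0.10 and −0.07, with SE 0.267 and 0.251, and their groups overlapped. BNIP3, a mitophagy receptor that HIF1A induces, had 6.58, 4.69, 12.2, 5.52 and 8.86 CPM in the obese dogs, against 3.87, 2.43 and 3.64 CPM in the Normal dogs. Its groups did not overlap, with obese dog 3 highest (log2 fold change 1.19, SE 0.436, adjusted p = 0.245 by edgeR), and no alternative fit called it. An uncharacterised gene that overlaps HIF1A had between 46.8 and 57.4% of the HIF1A counts in each library, and one that overlaps PDK1 had 24784 counts, against 7473 for PDK1.

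Phosphoglucomutases move a phosphate within sugar phosphates, and one of them, PGM2, had the lowest log2 fold change of the 32 genes. PGM2, which acts mainly on ribose phosphates and so joins nucleoside breakdown to sugar use, had 54.1, 69.1, 131, 99.98 and 47.6 CPM in the obese dogs, against 129.8, 352 and 285 CPM in the Normal dogs. Only obese dog 3 reached the level of Normal dog 1, and by less than 1 CPM. PGM2 had the smallest p of the 32 genes, with a log2 fold change of −1.67 (SE 0.397, adjusted p = 0.110 by edgeR). It fell by 1.95 without obese dog 3 (adjusted p = 0.0124 by edgeR) and was called by DESeq2 (0.00971) and limma-voom (0.00475). The fit without obese dog 3 leaves out the only obese dog not below all Normal dogs, so it is not separate evidence of a fall. The neutrophil marker sum was highest in Normal dog 2 and obese dog 3, the dogs with the highest PGM2 of their groups, and its part in this was not tested.

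PGM1, which converts glucose 1-phosphate from glycogen or galactose, ranged from 34.3 to 53.3 CPM in obese dogs and from 35.6 to 46.1 CPM in the Normal dogs (a log2 fold change of 0.15, adjusted p = 0.800 by edgeR). PGM1 therefore made up 38.5 ± 11.4% of the counts of the pair in obese dogs and 16.1 ± 8.91% in the Normal dogs, with an overlap between obese dog 3 (20.8%, exact binomial 95% interval 18.7 to 22.9%) and Normal dog 1 (26.2%, 24.5 to 28.0%). PGM1 overlaps ROR1 in the reference annotation, which had 5057 counts, against 4892 for PGM1.

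The pentose phosphate enzymes include the 3 most abundant of the 32 genes, TALDO1, PGD and TKT, and none of the 5 passed the test. PGD, which makes NADPH from 6-phosphogluconate, had 454, 268, 529, 454 and 304 CPM in the obese dogs, against 383, 467 and 319.6 CPM in the Normal dogs (a log2 fold change of 0.04, −0.078 with upper-quartile scaling). TKT, the transketolase of the non-oxidative branch, had 603, 362, 389.8, 399 and 319 CPM in the obese dogs, against 388, 382 and 314 CPM in the Normal dogs. TALDO1, the transaldolase, had 496, 332, 755, 322 and 267 CPM in the obese dogs, against 399, 659 and 432 CPM in the Normal dogs. Obese dog 3 and Normal dog 2 were the highest of their groups for PGD and TALDO1, as they were for the neutrophil markers, while TKT was highest in obese dog 1. The log2 fold changes of TKT and TALDO1 were 0.20 and −0.19, with SE 0.261 and 0.364.

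RPIA and RPE interconvert the pentose phosphates. RPIA had 44.0, 45.0, 28.1, 43.2 and 26.3 CPM in the obese dogs, against 56.5, 28.4 and 38.7 CPM in the Normal dogs, with an overlap throughout. RPE had 8.62, 4.89, 24.5, 8.36 and 9.74 CPM in the obese dogs, against 9.49, 9.18 and 8.29 CPM in the Normal dogs. For RPE, obese dog 3 had more than any other dog, and its log2 fold change of 0.32 turned to −0.22 without that dog. In its library the erythroid markers summed to 1162 CPM, and their part in the RPE value was not tested. RPE overlaps KANSL1L in the reference annotation, which had 11609 counts, against 1031 for RPE.

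Counts of 2 of the most abundant genes were shared with neighbours. An uncharacterised long noncoding gene that overlaps PGD had 100% of the PGD count in each library after rounding (40824 and 40760 counts in all). GATD1, which overlaps TALDO1, had 94.0 to 99.7% of the TALDO1 count (43660 and 44816 in all). The reads of PGD and TALDO1 could therefore not be told apart from those of their partners. In all, 17 of the 32 genes overlap another gene in the reference annotation.

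**Figure D5:**
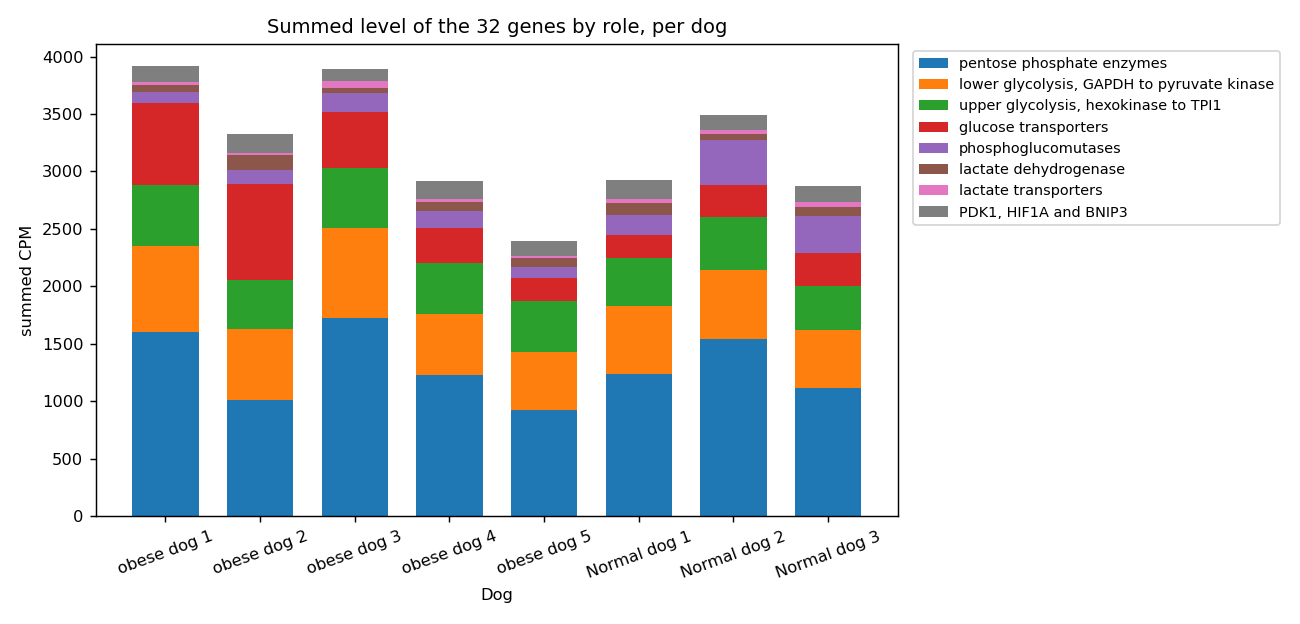
Summed CPM of the 32 genes in each dog, stacked by role, obese dogs left and Normal dogs right. The sum is 2394 to 3914 CPM in the obese dogs and 2874 to 3491 CPM in the Normal dogs, with more from glucose transporters in obese dogs 1 and 2 and more from phosphoglucomutases in Normal dogs 2 and 3.

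A list of 58 other genes of glucose use held 47 that could be tested, with a median log2 fold change of 0.03. None rose and FBP1 fell (edgeR), and at an unadjusted p under 0.05 there were 2 higher and FBP1 lower (4.26% and 2.13% of the 47, beside 9.01% and 6.73% of all genes). FBP1, which reverses the phosphofructokinase step in gluconeogenesis, had 4.76, 4.89, 5.33, 5.86 and 2.45 CPM in the obese dogs, against 54.1, 106 and 51.0 CPM in the Normal dogs. All obese dogs were far below all Normal dogs (adjusted p = 0.00661 by edgeR), while the 3 phosphofructokinase genes, which act in the other direction, had log2 fold changes of 0.43 (PFKL), 0.52 (PFKP) and 2.16 (PFKM), none of them called.

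The next genes of this list by p did not pass by edgeR with all dogs, but limma-voom called PCK2 (adjusted p = 0.024), SLC2A8 (0.0256) and H6PD (0.0243) higher. It also called lower FBP2 (0.0127), the muscle form of fructose bisphosphatase, and PDK4 (0.0355), a kinase of pyruvate dehydrogenase, and edgeR called FBP2 lower without obese dog 3 (0.0274). FBP2 and PDK4 are named because of these calls. For FBP2, obese dog 3 was the only obese dog above the Normal dogs, so the fit without it is not separate evidence of a fall. PCK2, the mitochondrial form of the gluconeogenic enzyme PEPCK, had a log2 fold change of 1.02 (SE 0.415), and SLC2A8, an intracellular glucose transporter with under 3 CPM in each dog, had 3.04 (SE 1.32). DLAT, a subunit of pyruvate dehydrogenase, averaged 22.1 ± 5.54 CPM in obese and 33.9 ± 6.73 CPM in the Normal dogs. H6PD, which makes NADPH in the endoplasmic reticulum, averaged 46.2 ± 18.4 CPM in obese dogs and 27.6 ± 1.52 CPM in the Normal dogs. SHPK, which makes sedoheptulose 7-phosphate for the pentose phosphate pathway, averaged 12.4 ± 2.83 CPM in obese dogs and 7.77 ± 1.49 CPM in the Normal dogs (SD, n = 5 and 3). BPGM, which makes the oxygen-affinity regulator 2,3-bisphosphoglycerate of red cells, had 7.60, 6.81, 40.6, 7.70 and 7.64 CPM in the obese dogs, against 5.06, 5.53 and 5.55 CPM in the Normal dogs. Its groups did not overlap, and its high value in obese dog 3 stood in the library with 1162 CPM of erythroid markers, whose part was not tested.

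Of 28 genes around HIF1A and its usual targets, 25 could be tested, with a median log2 fold change of 0.14. No gene of this list rose or fell (edgeR), 2 were higher and 2 lower at an unadjusted p under 0.05, which is 8% of the 25 in each direction, beside 9.01% and 6.73% of all genes. NDRG1 was called lower by DESeq2 (adjusted p = 0.000831), by limma-voom (0.0123) and by edgeR without obese dog 3 (0.00989). VEGFA, the vascular growth factor, was called lower by limma-voom (0.00421), and P4HA1, a collagen prolyl hydroxylase, by edgeR without obese dog 3 (0.0207), and both are named because of these calls. The log2 fold change of P4HA1 was 0.14 with all dogs and had the other sign without obese dog 3 (−1.12). P4HA1 had 460 CPM in obese dog 3, against 94.4 to 149 CPM in the Normal dogs. The other obese dogs lay below the Normal dogs, so the fit without obese dog 3 is not separate evidence of a fall. NDRG1, a stress-response gene that hypoxia induces, had 69.8, 61.3, 125, 76.8 and 84.1 CPM in the obese dogs, against 249.7, 639.9 and 167 CPM in the Normal dogs. Each obese dog was below each Normal dog (log2 fold change −2.08, SE 0.409, adjusted p = 0.0747 by edgeR). BNIP3L, the paralog of BNIP3 and also a mitophagy receptor, had 46.3, 41.3, 47.4, 41.9 and 35.6 CPM in the obese dogs, against 30.3, 20.03 and 29.0 CPM in the Normal dogs. Like BNIP3 it was higher in every obese dog, with a log2 fold change of 0.68 (adjusted p = 0.234 by edgeR).

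VHL, which marks HIF1A for destruction, had 8.17, 4.495, 5.10, 6.41 and 7.06 CPM in the obese dogs, against 13.9, 12.8 and 8.74 CPM in the Normal dogs, without overlap (log2 fold change −0.92, adjusted p = 0.240 by edgeR). ERO1A, an oxidase of the endoplasmic reticulum, averaged 30.5 ± 6.91 CPM in obese and 19.8 ± 2.47 CPM in the Normal dogs. P4HA2, a collagen prolyl hydroxylase, had a log2 fold change of −0.85 (SE 0.561). EPAS1, which encodes HIF-2α, had 0.76 (SE 0.502).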

How the data were processed

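RNA of PBMCs was extracted with Trizol and made into 3′ tag libraries with the Lexogen QuantSeq kit, per the labels' protocols. The authors deposited 1 table per dog of whole-number counts per gene symbol, not normalized. The submitters' processing notes name Bowtie2 and bedtools. The sources used here do not give their versions and roles, the genome build, the annotation, the strand setting or the handling of reads that match several genes. All 8 tables listed the same 35048 rows. For symbols on several rows (411 extra rows), the most abundant row was taken as the gene, and none of the 32 genes was affected.

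The test was run with edgeR 4.0.16 in R 4.3.3 (filterByExpr by group, TMM, glmQLFit and glmQLFTest with robust estimation), with Benjamini-Hochberg adjustment over 20632 genes and a threshold of 0.05. A positive log2 fold change means higher in the obese dogs, and its standard error (SE) is its size over the square root of the F statistic. The labels name separate dogs, so p-values rest on the spread between dogs. A chi-square comparison of each pair of libraries gave at least 40.5 per degree of freedom, so none agreed within sampling noise. Intervals are exact binomial 95% intervals and cover counting error only, since no molecular identifiers were counted. Isozyme shares and marker sums are descriptions without a test. Overlapping genes were looked up by symbol in RefSeq genes of UU_Cfam_GSD_1.0, which holds all 32, and coordinates are left out because the build of the tables is unknown.

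The 32 genes, the lists and the marker genes were chosen with earlier results of these data known. Genes given by single dog were those with an unadjusted p under 0.05 and the most abundant gene of each step. HK2 and SLC16A1 were added after their values were seen. Of the other 2 lists, genes past the threshold and up to 6 more with the smallest p are named, and genes of these lists without a test are not analysed here. The same test was tried on simulated data, with counts for 20085 genes drawn from the means and library sizes of this comparison. The share called was 8% for a 2-fold change, 54% for 4-fold, 78% for 8-fold and 90% for 16-fold, and 7 of 19885 unchanged genes were called. Alternatives were upper-quartile factors, DESeq2 1.42.0, limma 3.58.1 (voom with quality weights), no filter, summed repeated symbols, the most abundant row left out, a replicate block, and each dog left out.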

Additional observations from a re-analysis of the deposited data

Results flagged for a closer look

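In the 5 obese dogs, 66 values were examined for 1 dog far from the others. They were the 32 genes and their sum, the genes of the other lists named for their p by edgeR with all dogs, the marker sums and the isozyme shares. FBP2, PDK4, VEGFA and P4HA1, named for calls by alternative fits, were not examined. CPM values were compared as log2(CPM + 0.5) and shares in percent. The gap to the nearest dog, as a share of the group's range on that scale, exceeded Dixon's critical value of 0.71 for 5 of them, where chance flags about 1 in 20 groups. ALDOC was low in obese dog 4, at 5.30 CPM, where the nearest obese dog had 11.1 CPM. FBP1 was low in obese dog 5, at 2.45 CPM, where the nearest had 4.76 CPM. In obese dog 3, BPGM was high at 40.6 CPM, where the nearest obese dog had 7.70 CPM, and the sum of the erythroid markers was 1162 CPM, where the nearest had 30.2 CPM. HK2 took 18.2% of hexokinase counts in obese dog 3, where the nearest obese dog had 3.45%. On the CPM scale itself, an alternative chosen after the data were seen, 11 of the 54 CPM values were past the critical value. ALDOC (gap 0.631 of the range) and FBP1 (0.68) were not among them, while HK2 (0.872), SLC16A1 (0.843) and RPE (0.753) in obese dog 3, LDHA in obese dog 2 (0.756) and TKT in obese dog 1 (0.719) were. The remaining ones were SLC2A8, BPGM and the monocyte, neutrophil and erythroid marker sums in obese dog 3 and EPAS1 in obese dog 2.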

How the results depend on the processing

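The count of all genes called was 10 higher and 38 lower, and it was 602 and 429 with DESeq2, 1881 and 2043 with limma-voom with quality weights, and 0 to 661 higher and 2 to 1023 lower when 1 dog was left out, with both highest counts without obese dog 3. Of the 32 genes, 4 were called higher and 1 lower with DESeq2, which gave HK2 no p, 4 and 4 with limma-voom, and 0 to 3 in each direction when 1 dog was left out, where the 3 and 3 were without obese dog 3 and all other counts were 0. Of the other genes of glucose use, limma-voom called 3 higher and 3 lower, and 1 to 2 were lower when 1 dog was left out. Of the genes around HIF1A, 1 was lower with DESeq2, 2 with limma-voom, and 0 to 2 when 1 dog was left out. The causes of these differences were not tested.

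Same-numbered obese and Normal dogs did not deviate together (r = −0.02, −0.23 and 0.01 over genes for numbers 1, 2 and 3), so the numbers do not pair the dogs. Obese dogs 4 and 5 share their number with no Normal dog, so under a replicate block the group difference rests on dogs 1 to 3 of each group. With the replicate block, edgeR called 0 of all genes higher and 0 lower, with 919 and 715 at an unadjusted p under 0.05. It called 0 of the 32 genes, 0 of the other genes of glucose use and 0 of those around HIF1A. Under the block PFKL had a log2 fold change of −0.12 and TALDO1 one of 0.051, both with the other sign than in the fit without it.

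Among the 32 genes, none of the other sign changes concerned a called gene. With upper-quartile factors they were PGK1 (−0.0078), ENO1 (−0.067) and PGD (−0.078), and with limma-voom PDK1 (0.012) and RPE (−0.073). When 1 dog was left out, the log2 fold change ran from −0.12 to 0.25 for TPI1, −0.090 to 0.32 for PGK1, −0.16 to 0.25 for ENO1, −0.61 to 0.068 for LDHA, −0.54 to 0.051 for SLC16A3, −0.18 to 0.015 for PDK1, −0.26 to 0.13 for HIF1A, −0.11 to 0.16 for PGD, −0.52 to 0.035 for TALDO1, −0.38 to 0.17 for RPIA and −0.22 to 0.50 for RPE. The isozyme shares moved by less than 1 SD in all 180 recomputed group means, but this check could not have come out otherwise. Leaving out 1 dog always shifts a group mean by less than the group's SD. Summing repeated symbols could not move the shares either, because none of their genes had a repeated row. No conclusion on the stability of the shares is drawn from it. In the simulation, 2-fold changes were mostly missed, so a change of that size in 1 gene would often not be detected with these 8 dogs.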
